A study of Homo sapiens with 6 samples.

Results

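The deposited table of this RNA sequencing study holds 208 genes annotated with the term for DNA-templated transcription that are neither zinc-finger genes with a ZNF symbol nor annotated with DNA repair, DNA replication, the mitotic cell cycle or innate immune response. They were chosen from the 4546 genes of the table by annotation terms and symbols. Of 348 genes with the transcription term, 32 were left out for one of the barred terms and 108 for their symbol, 97 of them ZNF genes and the rest mostly Kruppel-like, E2F, AP-1, ETV and stress-response factors. The cells were A549, an established human lung adenocarcinoma line, treated for 48 hours with 50 nM mitoxantrone, a poison of DNA topoisomerase II, or with a 1/1000 dilution of the solvent DMSO. Each group had 3 libraries, and the labels name no genetic change in either group.

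Transcription regulators include factors that bind DNA at particular letters, cofactors that they recruit, enzymes that write, erase or read marks on histones and DNA, and the RNA polymerases themselves. Their transcripts are often short-lived, and many are controlled by the cell cycle, by growth signals or by DNA damage. The term is broad. A function in sequence-specific DNA binding as a transcription factor was annotated for 76 of the 208 genes, a location in the nucleus for 189, and the list also holds a chaperone gene (HSPA8), a cytokine gene (IL16), teneurin genes (TENM1, TENM2) and a noncoding RNA (LINC00473).

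The total reads of the libraries, recovered from the deposited values, ranged from 20380674 to 21781220 with DMSO and from 16681380 to 19352443 with mitoxantrone. The table lists only genes that had passed the authors' threshold on these same libraries, with absolute log2 fold changes from 1.00 and adjusted p up to 0.0497, so every gene in it passes a second test almost by construction. A gene outside the table is called not listed below, and may or may not have changed. Of the markers of A549 and lung epithelium, KRT8 was listed at 63454 ± 4825 normalized counts with DMSO, KRT19 at 582 ± 12.5 (SD, n = 3), CDH1 and MUC5AC were listed too, and 10 of 14 were not listed. Of markers of other cell types, 2 of 8 fibroblast, 3 of 11 leukocyte and 2 of 4 endothelial genes were listed, and all but COL1A1 of fibroblasts were higher with mitoxantrone. The summed level of the listed leukocyte markers (ITGAX, CD14 and CD8A) was 41.8 to 56.9 normalized counts with DMSO and 252 to 258 with mitoxantrone, and that of the endothelial markers (CDH5 and VWF) 0 to 2.59 and 13.5 to 19.4. The fibroblast sum (COL1A1 and THY1) was 618 to 674 and 306 to 391. KRT19 rose to 7706 ± 387 and KRT8 to 137474 ± 6647, CDH1 was higher and MUC5AC lower. The part of other cells in the results below was not tested.

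Most of these regulators were lower after mitoxantrone. In edgeR's quasi-likelihood test, 153 of the 208 were lower and 55 higher at an adjusted p of 0.05, or 73.6% and 26.4%. Among all genes of the table, 41.1% were lower and 58.9% higher by the same rule. The median log2 fold change was -1.19 for the regulators and 1.20 for all listed genes. Among the 97 ZNF genes with the same annotation, 89 were lower. These are descriptions of the table, since its genes were selected for change, and no test of the difference between gene groups was made.

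**Figure D1:**
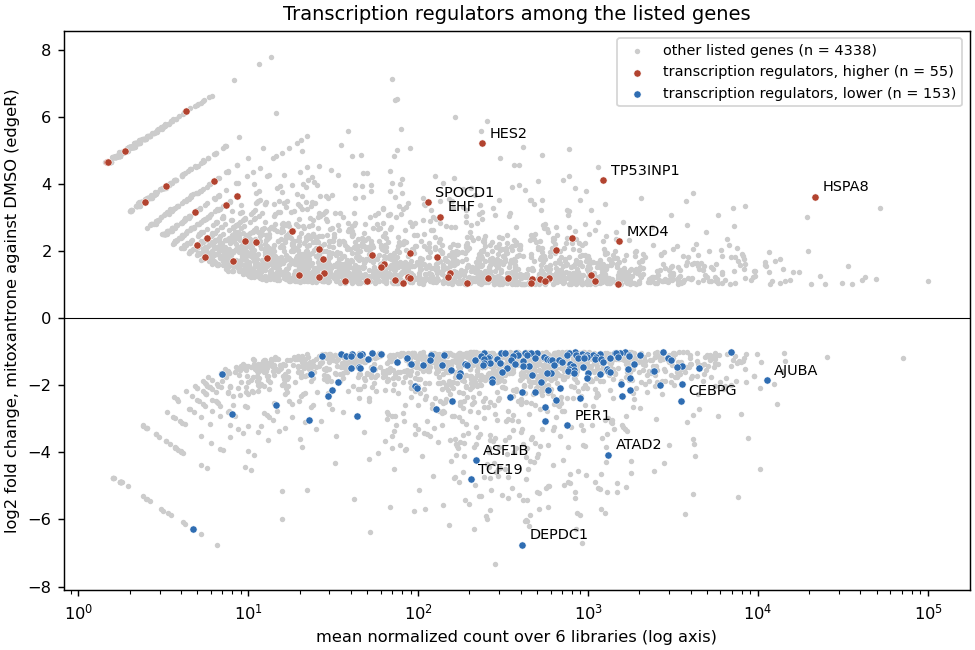
Log2 fold change (mitoxantrone against DMSO, edgeR) against the mean normalized count over 6 libraries, on a log axis. Each point is a gene. The 55 regulators that were higher are red, the 153 that were lower are blue, and the other 4338 listed genes are grey. The empty band around 0 is the authors' threshold.

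The falls were mostly modest and found in well-read genes. Of the 153 lower regulators, 124 had a log2 fold change between -2 and -1 and 29 fell by at least 4-fold, with a median of -1.38. The median of their mean count was 486 normalized counts (raw counts divided by the library's size factor), against 63.1 for the 55 that were higher. Over all 208, rises were fewer and wider, with 24 of 55 at 4-fold or more and a median of 1.81. Among all listed genes, 1211 of 2677 rises and 556 of 1869 falls reached 4-fold, with medians of 1.87 and -1.52. In regulators with a mean of at least 50 counts, the median rise was 1.26 and the median fall -1.36. There, 8 of 30 rises and 22 of 133 falls reached 4-fold, so the wider rises were mostly in genes with few reads. When the test was made against a change of 2-fold (edgeR's glmTreat), 117 of the lower and 43 of the higher regulators passed, where 32.1% and 48.5% of all listed genes passed in these directions. As shares of the genes called in each direction these were near the table's own, 76.5% of lower regulators beside 78.1% of all lower genes and 78.2% of higher regulators beside 82.3%.

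The direction depended on the read count in the whole table, and the regulators were set beside other genes of like count. With a mean of at least 50 normalized counts, 133 of 163 regulators were lower, 81.6%, where 55% of all such listed genes were. Between 200 and 1000 counts, 73 of 83 regulators were lower (88.0%) against 635 of 1074 other listed genes (59.1%). At 1000 counts or more the shares were 86.7% and 52.7%. Under 10 counts the shares were alike, 3 of 18 (16.7%) and 148 of 918 (16.1%).

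**Figure D2:**
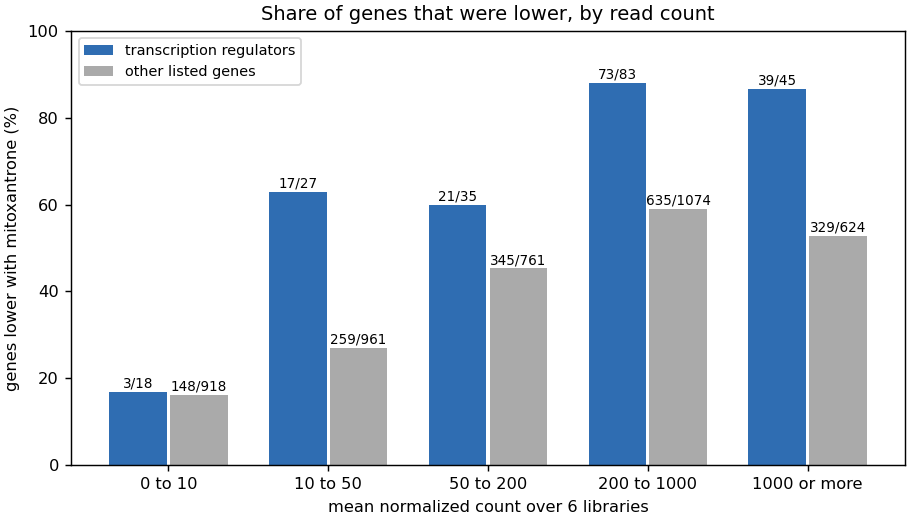
Share of genes that were lower with mitoxantrone, in percent, by mean normalized count over 6 libraries. Blue bars are the regulators and grey bars the other listed genes, with the number lower and the number in the bin above each bar. The blue bars stand above the grey from 10 counts upwards and match them below 10.

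The groups did not overlap for 206 of the 208 regulators, where 98.3% of all listed genes had no overlap. The exceptions were PRDM12 and RIPPLY3, both with few reads. PRDM12 had 1.71, 0.929 and 2.59 normalized counts with DMSO and 2.42, 10.2 and 12.2 with mitoxantrone. The spread between libraries was small, in the regulators as in the other listed genes. In regulators with a mean of at least 50 counts the median coefficient of variation was 6.11% with DMSO and 7.39% with mitoxantrone. In the other listed genes with such a mean it was 6.87% and 7.88%.

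As a whole, the regulators took 1.09% to 1.13% of all reads with DMSO and 0.647% to 0.659% with mitoxantrone. A single gene, HSPA8, supplied 30.3% to 31.5% of the regulators' reads with mitoxantrone and 1.35% to 1.80% with DMSO. Without it the shares were 1.07% to 1.12% and 0.443% to 0.458%. Since counts only give a gene's part of its library, fewer cells with a transcript, less of it per cell and more of all other RNA cannot be told apart.

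The deepest falls were in DEPDC1, TCF19, ASF1B and ATAD2. DEPDC1, a transcriptional corepressor gene (chromosome 1, 68939835 to 68962904 as deposited, with no build named), had 785, 797 and 854 normalized counts with DMSO and 10.9, 7.90 and 4.08 with mitoxantrone. That is a log2 fold change of -6.75 ± 0.18 (SE), 108-fold, from 2765 reads to 20. All 3 mitoxantrone libraries lay far below all 3 DMSO libraries. TCF19, a PHD-finger gene active at the G1/S transition, had 350, 422 and 416 counts with DMSO and 14.5, 9.03 and 18.4 with mitoxantrone, 27.8-fold lower (log2 fold change -4.80 ± 0.19, edgeR adjusted p against a 2-fold change 3.8e-22). ASF1B, a histone H3-H4 chaperone that works with DNA replication, went from 387, 391 and 462 counts to 32.7, 15.8 and 18.4. ATAD2, a bromodomain protein of replicating chromatin, went from 2592, 2395 and 2452 to 121, 152 and 166, 16.8-fold lower. In all 4 genes every mitoxantrone library lay below every DMSO library.

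The promoters of some of these genes are shown because these genes fell together, and short motifs known from cell cycle promoters were searched in them. Each is the 180 bases before the gene start in RefSeq (GRCh38.p14), read 5′ to 3′ on the gene's strand. Capitals mark letters of 4 motifs found on either strand. The cell cycle homology region, CHR, was searched as TTTGAA and, as its other form, TTTAAA, and 15.3% of the 35116 promoter windows in RefSeq hold it in these 180 bases. The core of E2F sites was searched in 3 forms, the first being TTCCCGC, the second of them TTGGCGC, and the last of them TTCGCGC, held by 7.25% of windows. The box CCAAT is held by 26.2% and the E-box with the letters CACGTG by 5.12%. Matches of different motifs were allowed to overlap. The p53 response element, held by 0.0114% of windows, was searched too and is in none of the 6 shown. HELLS, a chromatin remodeller that is described below, PER1 of the circadian clock and MXD4, which rose, are added for comparison. The 6 were picked without a rule, and ATAD2 is not shown. Their matches therefore do not describe the deepest falls as a set.
DEPDC1, chr1:68497083-68497262, minus strand: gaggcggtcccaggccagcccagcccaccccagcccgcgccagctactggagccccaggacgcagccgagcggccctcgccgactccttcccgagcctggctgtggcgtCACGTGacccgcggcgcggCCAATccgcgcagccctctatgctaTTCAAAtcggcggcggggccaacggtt
TCF19, chr6:31158409-31158588, plus strand: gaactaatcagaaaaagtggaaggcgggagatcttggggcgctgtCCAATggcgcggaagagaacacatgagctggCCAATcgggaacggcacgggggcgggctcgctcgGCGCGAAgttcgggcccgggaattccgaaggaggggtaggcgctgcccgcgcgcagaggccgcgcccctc
ASF1B, chr19:14136590-14136769, minus strand: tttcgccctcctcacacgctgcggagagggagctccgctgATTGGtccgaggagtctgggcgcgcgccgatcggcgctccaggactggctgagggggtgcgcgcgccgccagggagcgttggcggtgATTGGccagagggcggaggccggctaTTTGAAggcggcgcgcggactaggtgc
HELLS, chr10:94545608-94545787, plus strand: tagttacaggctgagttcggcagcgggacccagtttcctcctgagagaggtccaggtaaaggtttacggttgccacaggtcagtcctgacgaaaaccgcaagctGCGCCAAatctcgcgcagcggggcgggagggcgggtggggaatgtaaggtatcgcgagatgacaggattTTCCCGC
PER1, chr17:8152405-8152584, minus strand: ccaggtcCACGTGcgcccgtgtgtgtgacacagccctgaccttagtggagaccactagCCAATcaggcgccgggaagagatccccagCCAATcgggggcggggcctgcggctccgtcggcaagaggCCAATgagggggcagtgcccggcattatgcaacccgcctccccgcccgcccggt
MXD4, chr4:2262110-2262289, minus strand: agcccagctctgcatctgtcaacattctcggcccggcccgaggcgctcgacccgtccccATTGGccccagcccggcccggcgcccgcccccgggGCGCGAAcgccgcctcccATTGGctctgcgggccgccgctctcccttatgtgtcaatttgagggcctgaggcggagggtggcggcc

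In DEPDC1 and ASF1B the CHR match lies 27 bases before the start, downstream of a CCAAT match. TCF19 and HELLS hold an E2F core, and MXD4, which was higher with mitoxantrone, holds the same E2F letters as TCF19. A match is a description of letters, not of a bound site. A promoter window was found for 157 of the 208 regulators (75.5%). Since the others had none, shares of motifs were not compared between the lower and the higher genes.

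**Figure D3:**
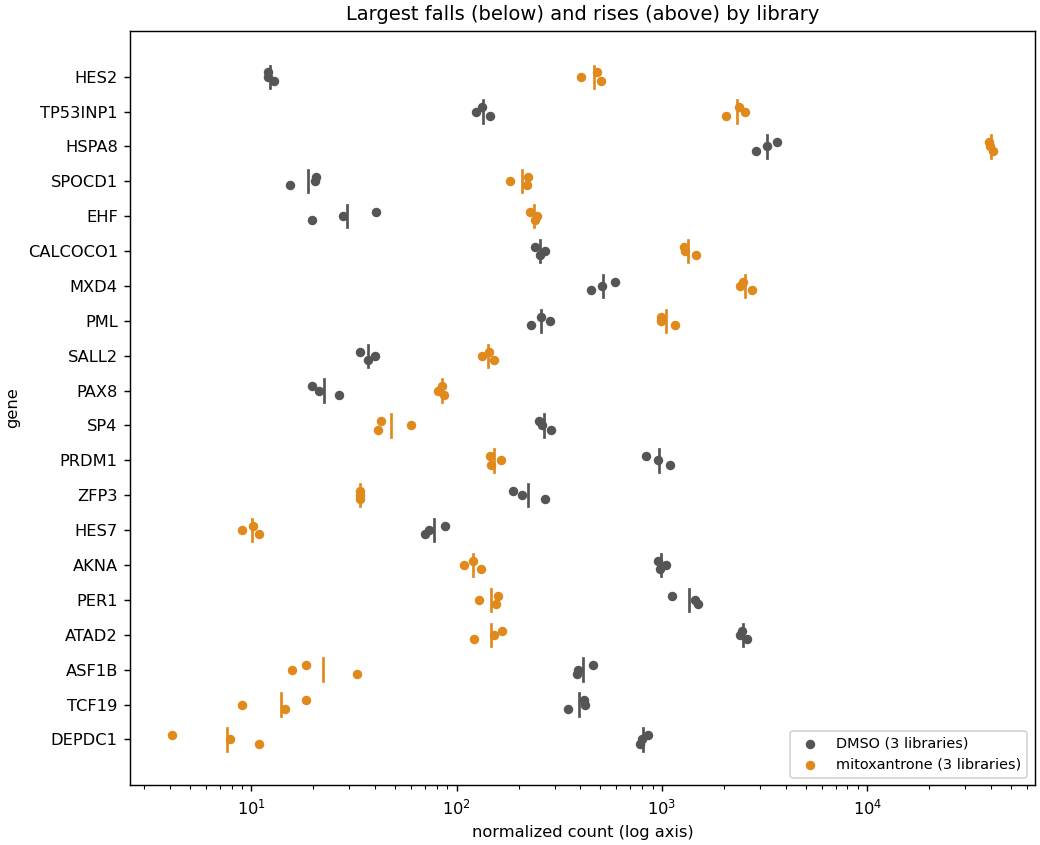
Normalized counts by library, on a log axis, for the 10 regulators with the largest falls and the 10 with the largest rises among those whose higher group averaged 50 counts or more, without overlap. Each point is a library, grey for DMSO and orange for mitoxantrone, and the short line is the mean of 3. No gene shown has overlapping groups. HSPA8 reaches the highest level and DEPDC1 the lowest.

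Polycomb, DNA methylation and other repressive chromatin genes were mostly lower. Of the 55 genes in that list 15 were listed, 14 of them lower. Among the 11 that belong to the regulators described here, 10 were lower and 1 higher, and their median was -1.59 (log2 fold change). Of all 208 regulators 73.6% were lower, and of the 83 with a mean of 200 to 1000 counts 88%. Counts of this list and of the family lists below are to be read beside these shares. EZH2, the enzyme that methylates histone H3 at lysine 27, had 1097, 972 and 1191 normalized counts with DMSO and 163, 210 and 219 with mitoxantrone, 5.48-fold lower (log2 fold change -2.45 ± 0.10). PHF19, a Polycomb accessory protein, fell from 1510 ± 32.9 to 287 ± 20.1 (SD, n = 3), and HELLS, a remodelling ATPase needed for DNA methylation, from 673 ± 69.8 to 145 ± 13.1. HELLS shares bases with the listed gene TBC1D12 on the same strand, so some reads may belong to either. The other lower members include SUV39H2, a histone H3 lysine 9 methyltransferase (log2 fold change -1.89 ± 0.13), DNMT1, the maintenance DNA methyltransferase, at 2669 ± 140 against 1025 ± 73.2, and BMI1, a Polycomb ring protein, at 1149 ± 53.5 against 381 ± 74.0. L3MBTL1, a reader of methylated histones, went the other way, with 30.9, 28.8 and 33.6 counts against 100, 72.2 and 97.9. The 4 listed genes of this list outside the regulators, among them UHRF1 at -2.38, were all lower.

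The list of DREAM and RB partners was drawn widely around these complexes, which repress cell cycle genes. It also holds genes that are not their subunits, among them CDCA7, CDCA7L, CCNT1 and CENPF. Of its 20 genes 11 were listed, and all 11 were lower. The subunits RBL1, LIN9, LIN52 and LIN54 were listed but are not among the regulators described here. The listed genes that are regulators are MYBL1, a MYB-family factor (log2 fold change -1.92 ± 0.10), and CDCA7L and CDCA7, zinc-finger proteins linked to MYC (-1.40 ± 0.12 and -1.26 ± 0.10). MYBL1 had 859, 789 and 868 counts with DMSO against 190, 209 and 264.

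Among histone-modifying enzymes and readers, 6 members were lower and 2 higher, where 73.6% of all 208 regulators were lower. Of all 16 listed genes of that list 13 were lower and 3 higher. CITED4, a coactivator that binds CBP and p300, was one of the most abundant regulators, at an FPKM (a length-scaled level) of 118 with DMSO and 25 with mitoxantrone, and its counts were 2882, 2973 and 2722 against 737, 590 and 601. PRDM1, also called BLIMP1, a repressor of the PR-domain family, had 1097, 954 and 833 against 148, 164 and 146, 6.31-fold lower, and shares bases with the listed gene ATG5 on the opposite strand. ASF1B belongs to this list too. The exceptions were KDM4B, a histone H3 lysine 9 demethylase (log2 fold change 1.30 ± 0.08), and KDM8 (1.12 ± 0.19), which did not pass against a 2-fold change (glmTreat, adjusted p = 0.11). Outside the rule for named genes, WHSC1, a histone H3 lysine 36 methyltransferase also called NSD2, was chosen after its values were seen, and fell from 4216 ± 103 to 1051 ± 31.1.

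In the deacetylase and corepressor list 7 genes were listed, 5 lower and 2 higher. Of the 5 members 4 were lower, RCOR2 (-2.02 ± 0.17), BCOR (-1.58 ± 0.07), RCOR3 (-1.24 ± 0.09) and SAP30 (-1.11 ± 0.16, adjusted p = 0.11 in glmTreat against a 2-fold change). RCOR2 and RCOR3 are partners of the demethylase LSD1, BCOR binds BCL6, and SAP30 belongs to the SIN3 complex. HDAC10 was the exception, with 28.3, 35.3 and 29.3 counts with DMSO and 103, 97.1 and 85.7 with mitoxantrone. By annotation, 17 of 19 members with corepressor activity were lower (89.5%). Of all listed genes with that annotation 38 of 43 were lower (88.4%), and of all 208 regulators 73.6%. Of 39 members annotated only with repression of RNA polymerase II promoters 31 were lower (79.5%), and of 21 annotated only with activation 15 (71.4%). No test was made of the difference between these shares.

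**Figure D4:**
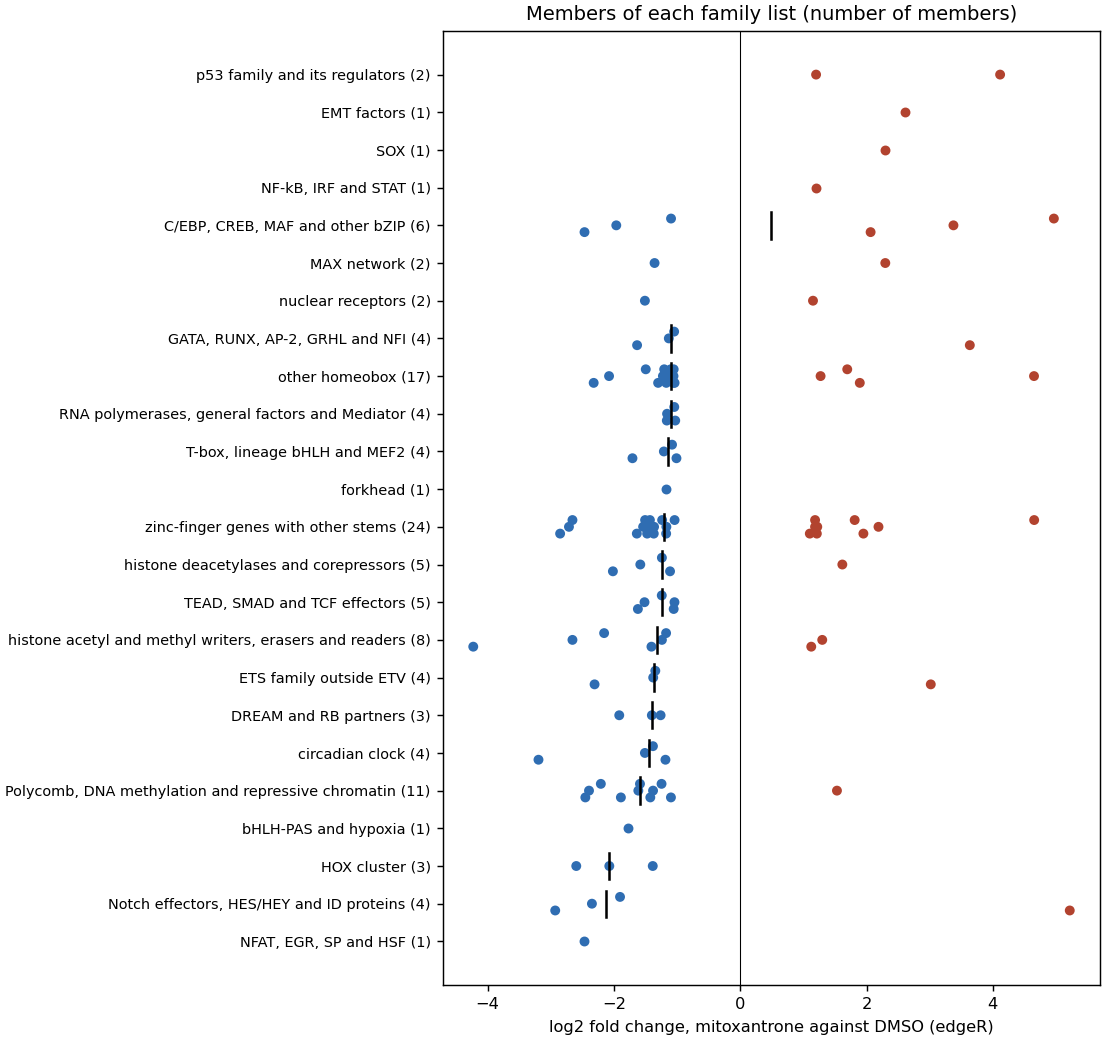
Log2 fold change (mitoxantrone against DMSO, edgeR) of the regulators in each family list. Points are genes, red if higher and blue if lower, the black line is the median of lists with at least 3 members, and the number of members is in brackets. The lists of Polycomb genes, the circadian clock, TEAD and SMAD effectors and DREAM and RB partners lie to the left of 0 but for L3MBTL1.

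Circadian clock genes were lower. The clock is a feedback loop in which PER and CRY proteins repress their own activators. All 4 members fell. PER1 had 1496, 1453 and 1114 normalized counts with DMSO and 156, 129 and 158 with mitoxantrone, a 9.16-fold difference (log2 fold change -3.20 ± 0.11), and the lowest DMSO library was still several times above the highest mitoxantrone library. PER2 went from 954, 921 and 869 to 324, 328 and 397, and NR1D2, a heme-binding nuclear receptor that represses clock genes, from 1250, 1060 and 1112 to 360, 420 and 419. PER3 had 119 ± 8.96 against 52.4 ± 1.23, but it did not pass against a 2-fold change (adjusted p = 0.060 in glmTreat). Of the clock list's 21 genes, 8 were listed, 7 lower and 1 higher. Outside the regulators, CRY1 (log2 fold change -2.02), NFIL3 (-2.57) and BHLHE40 (-1.12) were among the lower ones.

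In the list of Notch effectors, HES/HEY and ID proteins, 8 of the 9 listed genes were lower and only HES2 was higher. HES and HEY proteins are repressors that act downstream of Notch receptors or, for some, of other signals. HES2 had the largest rise of any regulator with at least 50 counts, from 12.9, 12.1 and 12.1 normalized counts to 506, 402 and 484, which is 37.2-fold (chromosome 1, 6472478 to 6484730 as deposited, log2 fold change 5.22 ± 0.17). The other 3 members fell. HES4 went from 530, 580 and 619 to 160, 81.3 and 101, HES7 from 70.3, 73.4 and 87.9 to 10.9, 9.03 and 10.2, and HEY1 from 53.2 ± 11.8 to 14.2 ± 1.35. The 5 other listed genes of this list of 19, HES1, HEY2, HEYL, ID2 and ID4, were all lower.

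Effectors of TGF-beta, Hippo and related signals were lower, 5 of 5 members, and 6 of 6 listed genes of 28. TEAD4, the DNA-binding partner of YAP, had 1160, 1298 and 1254 counts with DMSO and 398, 404 and 404 with mitoxantrone (log2 fold change -1.62 ± 0.08). SKIL, a repressor of SMAD signalling, was at -1.52 ± 0.08, SMAD2, a receptor-activated SMAD, at -1.24 ± 0.07, SMAD7, an inhibitory SMAD, at -1.05 ± 0.07 and SMAD1, the BMP effector, at -1.04 ± 0.12. Against a 2-fold change, SMAD7 and SMAD1 did not pass (glmTreat, adjusted p = 0.10 and 0.16). AJUBA, a LIM protein that binds and restrains the Hippo kinases, was the regulator with the highest FPKM with DMSO, 158, and fell to 41.0, from 18219, 18192 and 16602 normalized counts to 5049, 4827 and 4741. WWC1, also called KIBRA and an activator of the Hippo kinases, fell about as far as the authors' threshold, at -1.01 ± 0.07 (glmTreat, adjusted p = 0.21).

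In the bZIP list 3 members were lower and 3 higher, and of all 13 listed genes of the list 9 were lower and 4 higher. The lower ones were well read. CEBPG, a C/EBP protein that pairs with ATF4, had 5931, 5952 and 5987 normalized counts with DMSO and 1011, 1066 and 1154 with mitoxantrone, and MAFK, a small MAF protein that pairs with NRF2 or BACH1, had 6099, 5821 and 5157 against 1536, 1432 and 1412. JDP2, a repressor of AP-1, was at -1.10 ± 0.09 (adjusted p = 0.056 in glmTreat against a 2-fold change). The higher ones had few reads. BATF2 went from a mean of 10 counts to 42. CREB3L3 had 0 reads with DMSO and 10 with mitoxantrone, at least 4.21-fold higher against a floor of 3 counts over the group.

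ETS factors also split. EHF, an epithelial ETS factor, rose from 19.7, 27.9 and 40.5 normalized counts to 241, 247 and 229, 8.09-fold. ETS1 had 2835, 2734 and 2365 with DMSO and 509, 568 and 525 with mitoxantrone, 4.95-fold lower. ELK4, a partner of serum response factor, fell by 1.38 on the log2 scale and GABPB2, a subunit of the GABP factor, by 1.35. The ETS list's 2 other listed genes, ELF3 and SPI1, were higher.

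Homeobox regulators were mostly lower, as were the regulators as a whole (73.6% of 208). All 3 HOX members fell, while the one other listed gene of the 39 in that list, HOXC13, was higher (log2 fold change 1.20 ± 0.11). The falls were those of HOXB9, from 1037, 1139 and 1115 normalized counts to 279, 260 and 244, HOXC8 from 154 ± 7.83 to 58.9 ± 4.24 and HOXA11 from 25.2 ± 2.68 to 3.95 ± 2.50. Of 17 other homeobox and PAX members 13 were lower and 4 higher, and of all 25 listed genes of that list 16 were lower and 9 higher. Against a 2-fold change 7 of the 13 lower members passed (glmTreat), and 2 of the 4 higher ones were kept and called when genes with few reads were filtered out. LHX8, a LIM-homeobox gene, fell from 159 ± 13.3 to 37.7 ± 5.13 and GBX2 from 67.4 ± 13.8 to 23.6 ± 6.02. PAX8 rose from 26.6, 21.4 and 19.8 to 87.1, 81.3 and 84.7. PAX8 lies over the listed antisense gene PAX8-AS1 and GBX2 over AC079135.1, on opposite strands, and whether the counting kept strand is not given in the sources used here. Reads over such overlaps cannot be told apart. An overlap with another listed gene was found for 17 of the regulators, by the gene positions of GENCODE 29, and DEPDC1, SIM2, ELK4, TAF1D, JDP2, KDM8, SPOCD1 and SNAI3 are among them.

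Lineage factors of other families were lower in most cases, as were the regulators as a whole (73.6% of 208). SIM2, a bHLH-PAS factor, fell 3.43-fold, from 1643, 1469 and 1471 normalized counts to 417, 450 and 467. RUNX3 fell 3.10-fold, ATOH8, a bHLH factor, 3.26-fold and TBX3, a T-box repressor, 2.31-fold, from 1530 ± 25.4 to 661 ± 31.2. The forkhead gene FOXN2 was at -1.17 ± 0.09 and SP4, a GC-box factor, at -2.47 ± 0.15. EOMES, GRHL1, TFCP2L1 and TCF12 lay between -1.01 and -1.13 and did not pass against a 2-fold change (glmTreat, adjusted p = 0.18, 0.13, 0.15 and 0.21). Among the lists in which most members fell, the GATA and RUNX list had 1 higher member, CBFA2T3, a corepressor gene, with 4 reads over the DMSO libraries and 43 over the mitoxantrone libraries. SOX8 (11 and 44 reads) and SNAI3 (17 and 83 reads) were each the sole member of their list, and both were higher. SOX8 was not kept when genes with few reads were filtered out. Of all listed genes, the SOX list had 3 higher and 0 lower, the GATA and RUNX list 3 and 6, and the forkhead list 2 and 9. Without DMSO replicate 3 the log2 fold change of SOX8 was 3.10 in place of 2.29, and that of SNAI3 3.26 in place of 2.60.

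Subunits of RNA polymerase I and its start factors made up the members from the polymerase list. POLR1B and POLR1E, subunits of the enzyme that transcribes ribosomal RNA, were at -1.03 ± 0.07 and -1.16 ± 0.08, and TAF1B and TAF1D, of its promoter factor SL1, at -1.05 ± 0.10 and -1.16 ± 0.10. POLR1E had 1246, 1339 and 1336 normalized counts against 601, 591 and 564. POLR1B and TAF1B did not pass against a 2-fold change (glmTreat, adjusted p = 0.15 and 0.14). Of the whole list of 123 polymerase, general factor and Mediator genes 21 were listed, 17 lower and 4 higher, and 102 were not listed.

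Zinc-finger genes with other symbols than ZNF were 15 lower and 9 higher of 24, with a median of -1.21. This list was built from the first letters of symbols and also caught YY1AP1, which encodes a partner of the factor YY1. ZFP3 had 269, 208 and 189 counts with DMSO and 33.9, 33.9 and 33.7 with mitoxantrone, and SALL2, a spalt-family factor, rose from 36.9, 39.9 and 33.6 to 152, 132 and 143. CTCF, which organizes chromatin loops, had 2087 ± 110 against 925 ± 29.5, and was chosen after its values were seen.

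Both members of the p53 list were higher. TP53INP1, a p53 target that aids cell death and autophagy, had 145, 124 and 133 normalized counts with DMSO and 2048, 2548 and 2381 with mitoxantrone. Its relative TP53INP2 had 174, 144 and 152 against 380, 339 and 363 (log2 fold change 1.20 ± 0.11). In the list of p53 family genes and regulators, 6 of 7 listed genes of 15 were higher, among them ZMAT3 (log2 fold change 3.51) and MDM2 (2.2), and MDM4 was lower (-1.39). PML, the scaffold of PML nuclear bodies, rose from 229, 285 and 256 counts to 1152, 985 and 983, 4.05-fold (chromosome 15, 74287014 to 74340153 as deposited). MXD4, a partner of MAX that opposes MYC, rose from 450, 509 and 588 to 2732, 2403 and 2469, 4.91-fold, while MXD3 of the same family fell from 130 ± 22.7 to 50.6 ± 2.40. No other gene of the MAX network list of 12 was listed.

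HSPA8, the constitutive HSC70 chaperone that carries the transcription term, was the most abundant regulator with mitoxantrone. It had 2854, 3247 and 3644 normalized counts with DMSO and 41150, 39650 and 38917 with mitoxantrone, 12.3-fold (log2 fold change 3.62 ± 0.07), and its FPKM went from 35.7 to 414. The next highest FPKM among the higher regulators were 28.6 for DEDD2, a death-effector protein, 20.6 for TP53INP1, 18 for MXD4 and 14.6 for NR0B1, an orphan nuclear receptor also called DAX1. NR0B1 had 273, 315 and 279 counts against 683, 638 and 605. CALCOCO1, a nuclear receptor coactivator that also serves in selective autophagy, rose 5.28-fold, from 255, 268 and 240 to 1456, 1288 and 1286, and SPOCD1 11-fold, from 15.4, 20.4 and 20.7 to 220, 182 and 221. NFKBIZ, an atypical IkB protein that promotes some NF-kB targets, had 393, 351 and 318 against 804, 845 and 794. It was the only regulator in the NF-kB, IRF and STAT list of 23, where STAT3 was also higher and NFKB1, NFKB2 and IRF8 were lower.

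AKNA, an AT-hook protein of the centrosome and of CD40 regulation, was lower, with 973, 1040 and 959 normalized counts with DMSO and 131, 108 and 119 with mitoxantrone (log2 fold change -3.05 ± 0.10). Members outside the family lists, with AKNA and several genes described above among them, were 93 in all, 25 higher and 68 lower, at a median of -1.13 (log2 fold change). They include 5 named after their values were seen. YEATS4, a reader of acetylated histones, fell from 799 ± 23.7 to 170 ± 44.8, NUPR1, a stress protein, from 947 ± 61.3 to 213 ± 50.3, ERN1, the IRE1 sensor of unfolded proteins, from 2503 ± 243 to 636 ± 9.93, CHD1, a chromatin remodeller, from 1785 ± 139 to 562 ± 107 and SETD8, the histone H4 lysine 20 methyltransferase, from 1515 ± 37.2 to 484 ± 22.8.

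Several higher regulators were at or near 0 with DMSO. TENM1, LMX1A, ZFP41 and CREB3L3 had 0 reads over the DMSO libraries, and TENM1 had 24 with mitoxantrone, at least 10.1-fold higher against the floor. ZFP41 shares bases with the listed gene GLI4 on the same strand, so reads over the shared bases may belong to either. PAX5, a B-lineage factor, went from 2 to 32 reads, 20.2 times as many after scaling (exact 95% interval 5.16 to 174, counting error only). AFF3 went from 1 to 17 reads (ratio 21.5, interval 3.37 to 898). HMX3 was the single regulator with 0 reads over the mitoxantrone libraries, from 32 with DMSO, at least 8.44-fold lower.

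The median genomic span from the deposited start to end was 36.7 kb for lower and 27.1 kb for higher regulators, where it was 28.3 and 20.9 kb for the other listed genes. The lower share was 68.3% in regulators under 10 kb, 69.6% from 10 to 30 kb, 83.3% from 30 to 100 kb and 66.7% above, against 33.8%, 40.7%, 46.1% and 37.5% of the other listed genes. In each of these 4 ranges the share was higher among regulators. None of the 64 listed genes of chromosome 13 was one of the regulators. On the other autosomes and X they made up between 2.3% (chromosome 17) and 7.81% (chromosome 18) of the listed genes.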

How the data were processed

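Total RNA of 6 A549 libraries was sequenced in paired-end mode on an Illumina HiSeq, per the labels' protocols. These name a poly(A) kit and an rRNA kit but not the one used. Listed in the submitters' processing notes are HISAT2 2.0.1, cutadapt 1.9.1, SAMtools 0.1.19, HTSeq 0.6.1, Cufflinks 2.2.1 and DESeq2. The build, the annotation and strandedness were not given in the sources used here. Per the file headers, the deposited table holds raw read counts and FPKM values by the authors for each library. The authors' mean normalized count (a signal over all libraries), their log2 fold change, a score (that change over its standard error) and raw and adjusted p-values were also deposited.

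Size factors were recovered from the deposited counts and means (largest relative residual 4.8e-10), and library totals from counts and FPKM where FPKM reached 20. Counts were tested in edgeR 4.0.16 (R 4.3.3) by a quasi-likelihood F-test of group alone, with Benjamini-Hochberg adjustment over 4546 genes and a threshold of 0.05. The standard error (SE) is the log2 fold change over the root of F. Simulated data were used to test the script. Groups and replicate numbers came from the titles. Nothing says that libraries came from separate cultures, so p-values measure the spread between libraries, which may be technical. No pair of libraries agreed within sampling noise.

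The members, 25 family lists and tests were chosen with earlier results of these data known. Named genes were the 10 largest rises and falls that averaged 50 counts or more in the higher group without overlap, up to 3 such members of each family list, every member of lists with 5 or fewer, up to 3 that went against a list's majority, and the 5 with the highest FPKM in each direction. The MiT/TFE and SREBP list had no listed gene. Values of a few genes that the rule could name are not reported here. Alternatives were TMM, library totals, DESeq2 1.42.0, count filters, stricter thresholds, a replicate block and leaving out each library.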

Additional observations from a re-analysis of the deposited data

How the results depend on the processing

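No value reversed. The 55 higher and 153 lower regulators were the same in number under TMM, library totals, DESeq2 and the replicate block. With 1 library left out they ranged from 54 to 55 and from 152 to 153. All genes of the table were about as steady, at 2677 higher and 1869 lower in edgeR's quasi-likelihood test. They were 2676 and 1869 under TMM, and 2655 and 1868 under DESeq2. Since genes came into the table by a call made on the same libraries, steady counts and directions were largely set beforehand. They do not measure how firm the changes of the regulators are. Scaling by TMM, estimated from the listed genes alone, moved the median gene by -0.26 log2 and library totals by -0.09. Requiring 10 counts in 3 or more samples, 42 and 151 were called. With a mean count of at least 50 they were 30 and 133, since 25 of the higher genes lie under it. Deviations from the group means were not shared by libraries of one number (-0.07, -0.08 and 0.03 as correlations, 2622 genes), so the replicate block, which gave 55 and 153, describes no known pairing. Of 652 counts under alternatives 9 moved by over 1.5 times. The test against a 2-fold change left 7 of 13 lower homeobox members, 3 of 5 TEAD and SMAD effectors, 2 of 4 polymerase genes, 1 of 3 GATA and RUNX genes, 2 of 4 T-box and bHLH genes and 1 of 2 higher histone-modifying genes. The filter on low counts left 0 of 1 SOX genes and 2 of 4 higher homeobox genes, by removing genes with few reads. Of 1026 values of named genes, 13 did not pass, all against a 2-fold change. The share of members with a motif was computed in no promoter window, the shorter one included, since some members had none. Depth limits genes with under 10 counts, where 1 library can set the size of a change.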
